A study of Mus musculus with 12 samples.

Results

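The genes described here, 107 of the 32182 listed, had at least 4 times the level in epididymal as in inguinal adipocytes while their level in the stromal cells of the 2 depots differed little. They were chosen on measured values. The level was the deposited TPM, an estimate of transcript abundance per length that sums to the same total in each library. With 0.1 TPM added to each group mean, the ratio of epididymal to inguinal adipocytes had to be at least 4 (the adipocyte ratio) and that of epididymal to inguinal stromal cells between 0.67 and 1.5 (the stromal ratio). The mean had to reach 1 TPM in epididymal adipocytes, and every epididymal adipocyte library had to lie above every inguinal one. The depot differences themselves are therefore given as a description, with no test.

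White adipose tissue stores fat in adipocytes, and the epididymal depot is a visceral fat pad of male mice whereas the inguinal depot lies under the skin. Visceral and subcutaneous adipocytes arise from different precursors and differ in how they respond to overfeeding. The stromal vascular cells (SVCs) that remain when tissue is digested and the buoyant adipocytes are taken off are a mixture of precursors, fibroblasts, immune cells and vascular cells.

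All 12 libraries came from male C57BL/6J mice, an inbred strain, that were put on a high-fat diet at the age of 8 weeks and kept on it for 10 weeks. Epididymal (EAT) and inguinal (IAT) adipose tissue had been separated with collagenase I into adipocytes and SVCs. Each of the 4 groups, adipocytes and SVCs of either depot, had 3 libraries. No other diet, sex or genotype is among these groups, and the labels do not say how many animals gave a library or whether tissue was pooled, so the spread between libraries may be technical.

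The libraries held 20707325 to 26349357 expected counts. EAT adipocyte replicate 2 stood apart from the other 2 of its group, with a trend along gene length that touches several results below. The tables give UCSC transcript identifiers without gene symbols, and no table used here pairs the 2. Lists of cell-type markers could therefore not be matched, the labelled cell types were not checked against markers, and no function can be given for a gene. Only 4 genes are called by their identifiers, and the others are described by rank and count.

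Of the 32182 genes, 12920 had a mean of at least 1 TPM in EAT adipocytes, and 10880 of these also had a stromal ratio between 0.67 and 1.5. These 10880 genes, called the stromal-window genes, are the set from which the members come, and they serve as the background. Their adipocyte ratio had a median of 0.98 (quartiles 0.77 and 1.29). It lay between 0.5 and 2 for 9314 of them, between 2 and 4 for 875 and at 4 or more for 129, of which 22 were dropped because adipocyte libraries of the 2 depots overlapped. The members thus form the upper end of a continuous spread of ratios.

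The adipocyte ratio of the members had a median of 4.60 (quartiles 4.20 and 5.09). It was under 5 for 75 members, from 5 to 8 for 26 and above 8 for 6, with 27.3 as the highest. Around the threshold there was no gap: 15 members had a ratio below 4.1, the lowest being 4.002, and 19 genes that met every other condition had a ratio from 3.9 to 4, the highest being 3.997. The lowest EAT adipocyte library was at least 2 times the highest IAT adipocyte library for 81 members and at least 3 times for 36.

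The members spanned a wide range of abundance. Their mean level in EAT adipocytes ran from 1.19 to 2079 TPM with a median of 13.6 TPM, and 18 members exceeded 100 TPM while 26 stayed under 5 TPM. Summed over the 107 genes, the level was 11396, 10546 and 9230 TPM in EAT adipocyte replicates 1, 2 and 3. It was 2038, 2086 and 2819 TPM in IAT adipocytes. In EAT SVCs the sum was 10244, 11243 and 10933 TPM, and in IAT SVCs 8846, 9020 and 9426 TPM. The 3 IAT adipocyte libraries were thus the low ones, and the EAT adipocyte libraries lay within the range of the SVC libraries apart from replicate 1, which was slightly above it. In bulk samples, fewer cells of a type and less RNA per cell cannot be told apart.

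**Figure D1:**
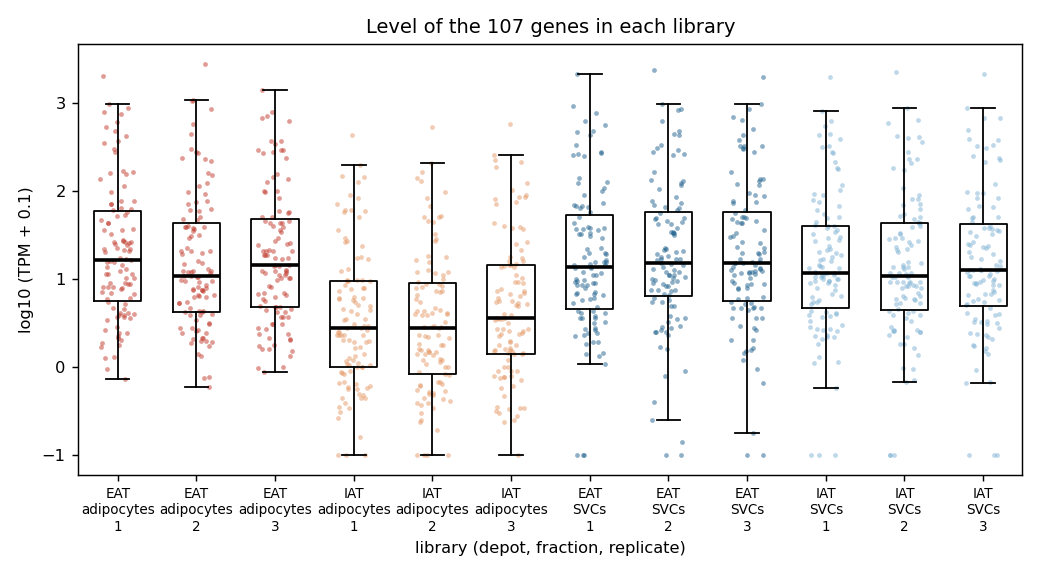
Level of each of the 107 genes (points, log10 of TPM + 0.1) in the 12 libraries, with the median and quartiles as boxes and whiskers to 1.5 times the interquartile range. The medians of the 3 IAT adipocyte libraries are 2.65, 2.67 and 3.51 TPM, and those of the other 9 libraries lie between 10.7 and 16.3 TPM.

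The rule did not set adipocytes against SVCs, but it chose on the adipocyte levels used here, so the following is a description. The genes had about the same TPM in EAT adipocytes as in EAT SVCs. The level in EAT adipocytes divided by that in EAT SVCs, with 0.1 TPM added to each, had a median of 0.999 (quartiles 0.783 and 1.14). It lay within 2-fold for 98 of 107 members (91.6%), against 73.5% of the stromal-window genes, whose median was 0.828. In IAT the same quotient had a median of 0.249 (quartiles 0.204 and 0.334), and 103 members were at least 2-fold lower in adipocytes. For the stromal-window genes the median in IAT was 0.775, and 2863 of 10880 were at least 2-fold lower. Of the 4 group means, that of IAT adipocytes was the lowest for 104 members, and the highest was that of EAT adipocytes for 51, of EAT SVCs for 48 and of IAT SVCs for 8. Among the 10880 stromal-window genes IAT adipocytes were the lowest for 4201. There the highest was EAT adipocytes for 1542, IAT adipocytes for 2923, EAT SVCs for 2830 and IAT SVCs for 3585. For members the rule itself barred IAT adipocytes as the highest and EAT adipocytes as the lowest. Nothing is therefore read from the difference in these counts.

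The single libraries were compared in the same way. For the members the rule had already placed the EAT adipocyte libraries above the IAT ones, which it had not for the stromal-window genes, so shares that involve both adipocyte groups are given as a description and nothing is read from the difference. All 3 IAT adipocyte libraries lay below all 9 others for 101 of 107 members, against 13.8% of the stromal-window genes. All 3 EAT adipocyte libraries lay above all 9 others for 10 members (9.35%), against 3.2% of the stromal-window genes. EAT adipocyte and EAT SVC libraries overlapped for 84 members, whereas 63.6% of the stromal-window genes showed no overlap. The label of the set, genes raised in EAT adipocytes, holds against IAT adipocytes by the rule itself. With SVC levels alike and a ratio of at least 4, some adipocyte group had to lie away from the SVCs. As a description, in 101 members the IAT adipocyte libraries stood apart from the other 9, on the low side.

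Whether the genes favour adipocytes or SVCs was tested as the mean of the EAT and the IAT fraction difference, adipocytes against SVCs. This mean is orthogonal to both depot differences when all groups vary alike, but it uses the same adipocyte libraries that chose the members. The groups did not vary alike: the coefficient of variation between libraries had a median of 30.5% in EAT adipocytes and 27.3% in IAT adipocytes over the members, and of 13.8% and 12.4% in EAT and IAT SVCs. Of the 106 members that passed the filter on low counts, 62 were higher in SVCs (58.5%, against 42.3% of the 15813 genes tested), 2 were higher in adipocytes (1.89%, against 32.8%) and 42 did not pass (edgeR's quasi-likelihood test, Benjamini-Hochberg adjusted p below 0.05). Differences of at least 4-fold were found for 2 members toward SVCs and for 2 toward adipocytes, against 11.9% and 6.05% of all genes tested. The median log2 difference of the members was -0.57 (quartiles -0.93 and -0.32), beside -0.16 for all genes tested and 0.03 for the stromal-window genes. It averages a median of 0.44 in EAT, where 85 of the 106 were above 0, with one of -1.63 in IAT. A call toward SVCs therefore does not mean that a gene was higher in SVCs in both depots. As the groups did not vary alike, the test is not free of the choice, and the shares of members called are a description.

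The 2 depots differed in this respect, which the rule in part fixed. In the edgeR fit the log2 difference between adipocytes and SVCs had a median over the members of 0.44 in EAT (quartiles 0.07 and 0.69) and of -1.63 in IAT (quartiles -2.01 and -1.25). Over all genes tested the medians were -0.04 and -0.24. Scaled by the size factors of DESeq2, the medians of the members became 0.48 and -1.48 and those of all genes 0.00 and -0.09, and with library size alone they became 0.27 and -1.84, and -0.21 and -0.44. The sign of neither median over the members turned, but whether the level in EAT adipocytes is equal to that in EAT SVCs or slightly above it depends on the scale, since it was equal in TPM. Genes at least 4-fold higher in SVCs by the edgeR test, 1878 without the members, had a median EAT minus IAT difference in adipocytes of 0.02 on the log2 scale (quartiles -0.66 and 0.74), the same as the 0.02 of all genes tested, where the members had 2.30. Scaled by the size factors of DESeq2 the 3 medians were -0.10, -0.11 and 2.18. In the TMM fit 946 of the 1878 lay above 0, beside 8064 of the 15813 genes tested. The 1878 genes mix several cell types, which were not told apart, and were picked with the same adipocyte libraries. What their values mean for the members was not tested.

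**Figure D2:**
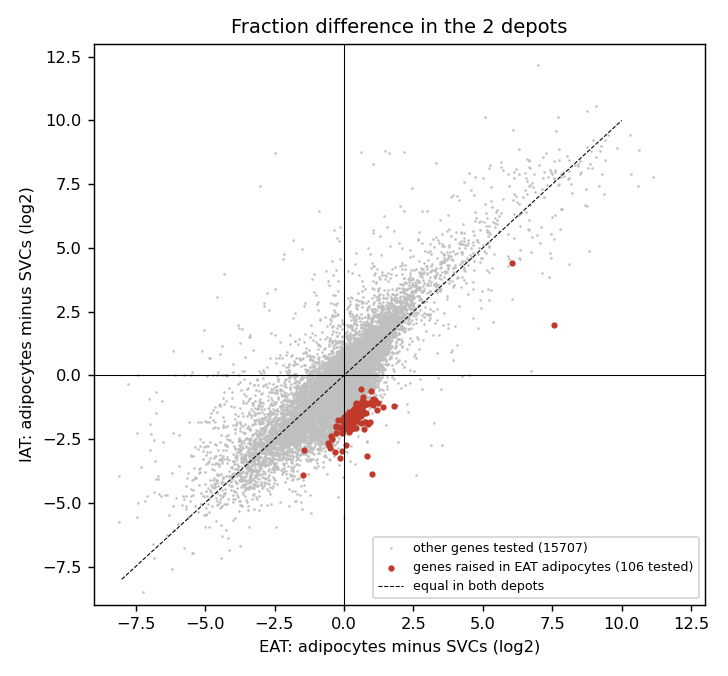
Log2 difference between adipocytes and SVCs in EAT (horizontal) and in IAT (vertical) for 106 members (red) and the other genes tested (grey), from the edgeR fit. The members lie below the line of equal differences, as their selection requires, and all but 2 lie below 0 on the IAT axis, around a median of -1.63, with a median of 0.44 on the EAT axis.

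The same rule with the depots exchanged gave 63 genes raised in IAT adipocytes, of which 58 passed the count filter. That set was arranged differently. In IAT adipocytes its level was a median of 5.75 times that in IAT SVCs (quartiles 2.08 and 15.0), where the members described here had stood at 0.999 in the matching comparison for EAT. Its mean fraction difference had a median of 1.65 on the log2 scale, and in the edgeR fit 19.0% of its 58 genes tested lay within 2-fold of the SVCs in IAT, where 88.7% of the members tested lay within 2-fold of the SVCs in EAT. The difference between the 2 sets was not tested.

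The member with the highest level in EAT adipocytes was uc007pfz.1, a gene of 447 bases with 1 transcript. It stood at 2017, 2821 and 1398 TPM in EAT adipocytes and at 429, 530 and 576 TPM in IAT adipocytes. In SVCs it stood at 2148, 2408 and 2003 TPM in EAT and at 1979, 2270 and 2147 TPM in IAT. The IAT adipocyte libraries were low, and the EAT adipocyte libraries spread around the range of all 6 SVC libraries. The mean fraction difference was -0.57 on the log2 scale (SE 0.21, adjusted p = 0.0276, edgeR), made up of 0.50 in EAT and -1.64 in IAT. This call was lost with DESeq2's size factors (-0.46, adjusted p = 0.0772) and with DESeq2's own test (adjusted p = 0.0607). It was also lost when any of 6 libraries was left out, namely EAT adipocyte replicate 1, IAT adipocyte replicates 1 and 2, EAT SVC replicate 2 and IAT SVC replicates 2 and 3, with adjusted p-values of 0.0504 to 0.0776 by edgeR.

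The member second in level, uc007dqp.1, of 1300 bases and 2 transcripts, was measured more evenly. Its levels were 969, 1073 and 672 TPM in EAT adipocytes and 199, 211 and 258 TPM in IAT adipocytes. In EAT SVCs they were 939, 987 and 865 TPM, and in IAT SVCs 807, 892 and 871 TPM. Again only the IAT adipocyte libraries stood away from the rest. The mean fraction difference was -0.69 on the log2 scale (SE 0.12, adjusted p = 0.000184, edgeR), with 0.18 in EAT and -1.56 in IAT, and the call held in all 18 alternative fits.

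The 3 members next in level repeated this arrangement. The third stood at 879, 1056 and 628 TPM in EAT adipocytes against 128, 164 and 213 TPM in IAT adipocytes, and between 547 and 848 TPM in the 6 SVC libraries. The fourth stood at 751, 857 and 802 TPM against 145, 142 and 187 TPM, and between 593 and 970 TPM in SVCs. The fifth stood at 798, 581 and 716 TPM against 149, 131 and 227 TPM, and between 412 and 643 TPM in SVCs. In each of the 3, IAT adipocyte replicate 3 was the highest of its group and still below every other library.

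An exception to this pattern were 3 members with almost no reads in SVCs, for which a stromal ratio near 1 only compares levels near 0. The gene uc008qdh.1, of 491 bases, had the highest adipocyte ratio, with 3.55, 6.50 and 4.11 TPM in EAT adipocytes, 0.00, 0.00 and 0.23 TPM in IAT adipocytes, and 0.00 TPM in all 6 SVC libraries. These levels rest on 63 counts in EAT adipocytes and 1 in IAT adipocytes. Pooled over depots it was at least 22.5-fold higher in adipocytes, with 64 counts in 6 libraries set against a floor of 3 counts over the 6 SVC libraries. Of the 64 counts 63 were in EAT, where the rule required a high level, so the pooled ratio describes EAT and not IAT. The mean fraction difference passed (adjusted p = 0.0261, edgeR), but not when IAT adipocyte replicate 3, which held its single IAT count, was left out.

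The gene uc008mpd.1, of 2805 bases and 2 transcripts, stood at 3.34, 1.65 and 1.67 TPM in EAT adipocytes and at 0.06, 0.00 and 0.15 TPM in IAT adipocytes. In SVCs it was at 0.00, 0.04 and 0.08 TPM in EAT and at 0.00 TPM in all of IAT. It had 234 counts over the 6 adipocyte libraries and 4 over the 6 SVC libraries, a ratio of 61.6 per count sequenced, with an exact interval of 23.7 to 228 at 95% that covers counting error only. Of the adipocyte counts 227 were in EAT, where the rule required a high level, and 7 in IAT, so the pooled ratio mostly describes EAT. The mean fraction difference was 5.22 on the log2 scale (SE 0.91, adjusted p = 0.000394, edgeR), and the call held in all 18 alternative fits. The third such gene was the lowest member in level, with 31 counts in EAT adipocytes, 5 in IAT adipocytes and none in SVCs, and it was the one that did not pass the count filter. These 3 were the genes with no or almost no SVC signal, and they account for the 3 members in which an SVC group and not the IAT adipocytes had the lowest mean.

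In another 4 members a single library stood far above the others. In these, the highest EAT adipocyte library was more than 3 times the middle one, and it was replicate 2 in each of the 4. In one of them, of rank 89 in level, the EAT adipocyte libraries stood at 0.64, 9.20 and 0.78 TPM and the IAT adipocyte libraries at 0.50, 0.24 and 0.25 TPM, with an adipocyte ratio of 8.47. In another, of 728 bases, they stood at 1.17, 11.9 and 2.25 TPM against 0.00, 0.00 and 0.65 TPM. The SVC libraries of that gene also scattered, from 0.15 to 9.03 TPM. In the one highest in level, of rank 38, they stood at 16.9, 63.1 and 16.9 TPM against 5.96, 6.96 and 9.08 TPM, so that there replicates 1 and 3 were also clearly above the IAT libraries.

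A pair of members, each of 701 bases, had identical values in all 12 libraries: 8.86, 20.49 and 11.47 TPM in EAT adipocytes and 2.24, 2.24 and 2.58 TPM in IAT adipocytes. RSEM divides reads that fit several genes, so 2 genes with equal values may be near-identical copies that share the same reads, and they are reported as uncertain. Expected counts that were not whole, the mark of such divided reads, were found in at least 1 library for 27 members (25.2%), close to the 26.1% of the stromal-window genes.

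The 107 genes were short. Their length, averaged over the libraries, had a median of 1408 bases (quartiles 1082 and 2217), against 2639 bases for the stromal-window genes and 2491 bases for the 63 genes raised in IAT adipocytes. Of the members 25 (23.4%) were under 1000 bases and 15 (14.0%) over 3000 bases, against 9.31% and 41.6% of the stromal-window genes. The share of stromal-window genes that were members fell from 3.66% below 500 bases (6 of 164) and 2.57% from 1000 to 1500 bases (32 of 1244) to 0.228% from 4000 bases upward (6 of 2627). The median adipocyte ratio of the stromal-window genes fell over the same bins from 1.31 to 0.92. Of the members, 44 (41.1%) had 1 transcript, against 31.0% of the stromal-window genes.

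EAT adipocyte replicate 2 moved with length among the members. In the 36 shortest members (367 to 1159 bases) it was a median of 0.30 higher than replicates 1 and 3 on the log2 scale, and higher in 24 of 36 genes. In the 36 of middle length the median was -0.52, and it was higher in 5. In the 35 longest (2028 to 6398 bases) the median was -0.995, and it was higher in 2. This library entered both the mean and the lowest value that the rule used, and the stromal-window genes of the same lengths moved the same way in it. Their medians were 0.44 (higher in 83.4% of 1317 genes), -0.03 (46.9% of 2340) and -0.73 (9.05% of 6412), from the shortest to the longest. Over all lengths the library was the lowest of its group for 58.9% of the members and 68.7% of the stromal-window genes, with medians of -0.43 and -0.47. Without it the rule drew 237 genes, with a median length of 2380 bases, of which 97 were members. The 97 members kept had a median of 1460 bases and the 10 lost a median of 1049 bases. The 140 genes gained had a median of 3092 bases and a median adipocyte ratio of 3.59 with all libraries in place. The median length of the set thus depended on this library through the genes gained. The 97 members kept had also been chosen with this library in place, so their length is not free of it. The set drawn without it, at 2380 bases, was nearer to the 2639 bases of the stromal-window genes.

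**Figure D3:**
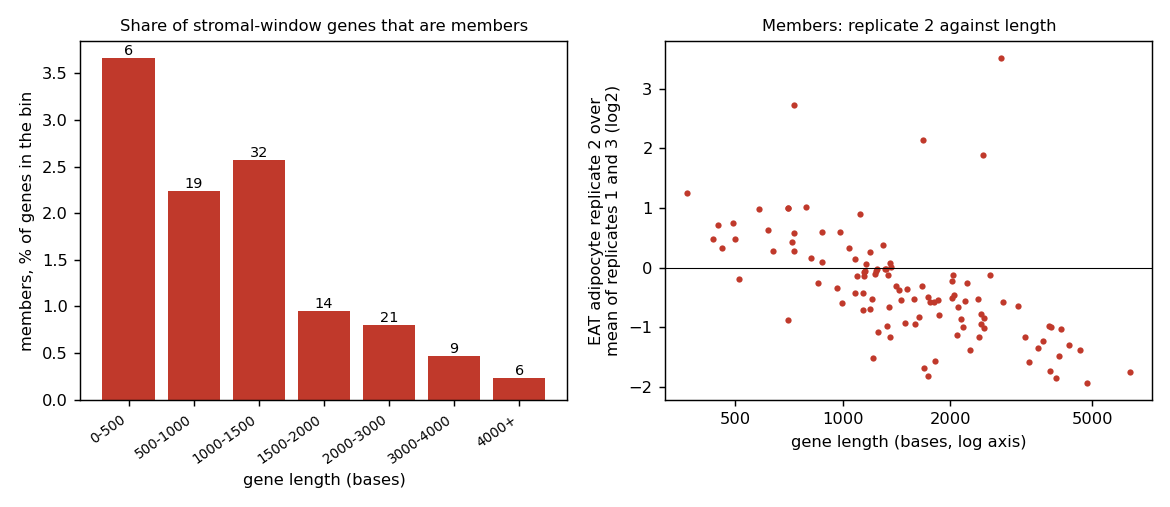
Left, share of the stromal-window genes that are members by gene length in bases, with the number of members above each bar, falling from 3.66% to 0.228%. Right, each member's level in EAT adipocyte replicate 2 over the mean of replicates 1 and 3 (log2 of TPM + 0.1) against gene length (log axis), where short members lie mostly above 0 and long ones below.

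The members also moved together between replicates of a group, and the part of this in the depot difference was not tested. In IAT adipocytes, replicate 3 was the highest library for 86 of 107 members (80.4%), against 29.2% of the stromal-window genes. It exceeded the mean of the other 2 libraries by a median of 0.52 on the log2 scale (quartiles 0.30 and 0.73), where the stromal-window genes had a median of -0.03. The 1878 genes at least 4-fold higher in SVCs had a median of -0.22 in this library. Genes at least 4-fold higher in adipocytes had a median of -0.04. In EAT adipocytes, replicate 1 was the highest for 63 members (58.9%), against 37.5% of the stromal-window genes. In the SVC groups the medians of the members lay between -0.17 and 0.12.

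**Figure D4:**
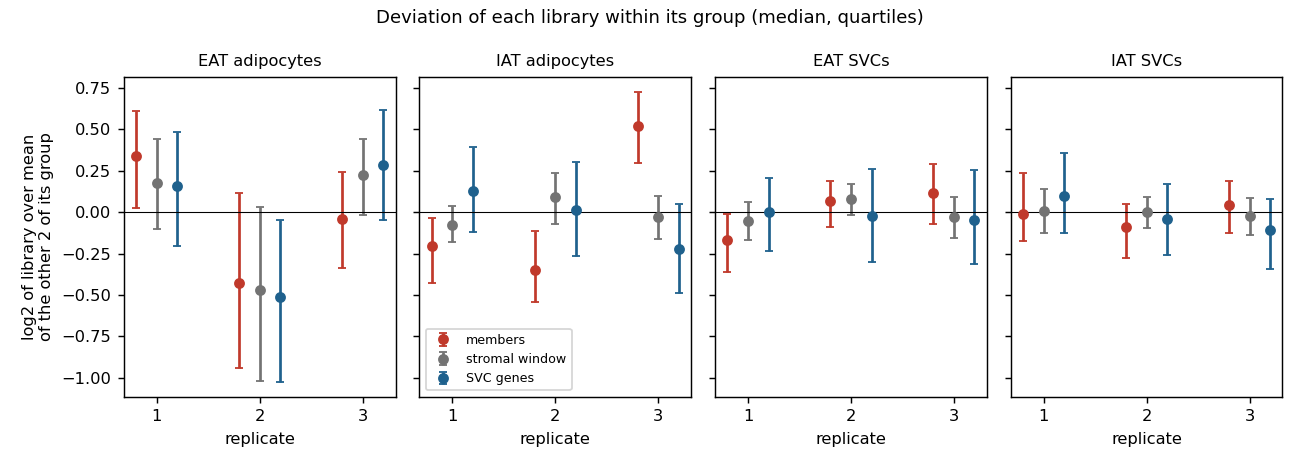
Log2 of each library's TPM over the mean of the other 2 libraries of its group, as the median (point) and quartiles (bars) over the members (red), the stromal-window genes (grey) and the genes at least 4-fold higher in SVCs (blue). In IAT adipocyte replicate 3 the members have a median of 0.52, the stromal-window genes of -0.03 and the SVC genes of -0.22.

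The depot difference was also read with 1 adipocyte library kept out of the choice. The rule was applied without it, and the ratio was then taken between that library and the mean of the other depot. The 3 libraries of the other depot did take part in the choice, so only 1 side of each ratio is free of the rule and the values are a description. Genes drawn without EAT adipocyte replicate 1 (76 genes) had a median ratio of 4.77 in it, and those drawn without replicate 3 (108 genes) had 4.26 in replicate 3. For IAT adipocyte replicates 1 and 2 the medians were 4.95 (89 genes) and 5.33 (86 genes). The libraries that gave less were EAT adipocyte replicate 2, with 2.32 over 237 genes, and IAT adipocyte replicate 3, with 3.19 over 207 genes. Over the stromal-window genes drawn in the same way the medians lay between 0.77 and 1.07.

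Counted by gene, the left-out library reached a ratio of 4 for 65.8%, 18.6% and 58.3% of the drawn genes in EAT adipocyte replicates 1, 2 and 3 and for 76.4%, 81.4% and 18.4% in IAT adipocyte replicates 1, 2 and 3. Of the stromal-window genes 2.31%, 0.751% and 1.8% did so in the EAT and 2.44%, 2.59% and 0.818% in the IAT adipocyte libraries, in the same order. The left-out library lay beyond every library of the other depot for 96.1%, 84.4% and 99.1% of the drawn genes in EAT and for 97.8%, 95.3% and 91.8% in IAT adipocytes. Of the stromal-window genes 46.4%, 25.9% and 47.1% did so in EAT and 26.5%, 22.5% and 24.6% in IAT adipocytes. A ratio of 4 was thus reached by a minority of the drawn genes in 2 of the 6 left-out libraries, EAT adipocyte replicate 2 and IAT adipocyte replicate 3.

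**Figure D5:**
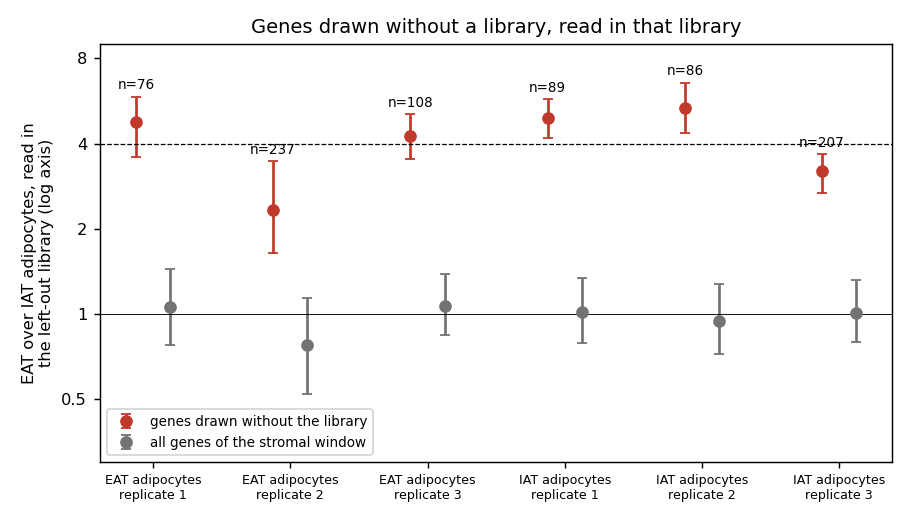
Ratio of EAT to IAT adipocytes (log axis) read in the adipocyte library that was left out of the choice, as the median (point) and quartiles (bars) over the genes drawn without that library (red, number above) and over all stromal-window genes (grey). The red medians run from 2.32 to 5.33 and the grey ones from 0.77 to 1.07, with the dashed line at the threshold of 4.

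The SVC levels of the members differed little between the depots, as the rule required. The stromal ratio had a median of 1.29 (quartiles 1.09 and 1.37) within the window of 0.67 to 1.5. It was above 1 for 92 of 107 members (86.0%), against 51.1% of the stromal-window genes. When the choice was made without 1 SVC library, the ratio read in that library had a median of 1.19 to 1.41 over the drawn genes and of 0.98 to 1.04 over the stromal-window genes. It lay inside the window for 60.8% to 87.0% of the drawn genes, against 92.5% to 95.7%.

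In the edgeR fit all 106 members tested passed in the adipocyte depot contrast that had chosen them, where 21.6% of all genes tested were higher in EAT, and nothing is read from that count. In the SVC depot contrast 1 member was higher in EAT and 0 in IAT, where 7.77% and 6.86% of all genes tested were. The rule kept only genes with little SVC difference between depots, so nothing is read from these counts either. With the choice repeated 12 times, each time without a different library, 34 members were drawn every time, 47 in each of the 6 draws without an adipocyte library and 75 in each of the 6 without an SVC library. Of the 34, 33 lay within 2-fold of the EAT SVCs in EAT adipocytes, against 98 of all 107 members and 73.5% of the stromal-window genes. Called higher in SVCs were 21 of the 34, against 62 of the 106 members tested and 42.3% of all genes tested. The median length of the 34 was 1151 bases. They were picked by the same rule on the same data, so these values are a description.

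The counts behind these values were ample for most genes. In EAT adipocytes the members had a median of 991 counts over the 3 libraries, and 94 of 107 had at least 100. In IAT adipocytes the median was 199 counts, and 9 members had fewer than 10. For those 9 the adipocyte ratio is uncertain by counting alone.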

How the data were processed

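RNA-seq tables of 12 libraries were used. Per the file headers each lists, by gene, the expected count, TPM, FPKM and 2 measures of length. RSEM 1.2.25, Bowtie2 2.2.6, limma, GRCm38 and mm10 appear in the submitters' processing notes, with no role stated. The sources used here do not state the strand setting, which leaves antisense or overlapping genes uncertain. The deposited TPM values, as the authors scaled them, were used as they stand for the rule and all levels. The deposited FPKM values were not used.

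The expected counts deposited by the authors were rounded. Genes were filtered with filterByExpr (15813 kept), scaled with TMM and fitted with 1 coefficient per group over all 12 libraries (8 residual degrees of freedom). For the mean fraction difference the quasi-likelihood test of edgeR 4.0.16 was run in R 4.3.3, two-sided, with Benjamini-Hochberg adjustment over all genes tested. SE is the log2 difference divided by the square root of F. On simulated counts for this comparison over 15813 genes, 78% of 2-fold and 95% of 4-fold changes were recovered and 3.35% of calls were false. The simulation had few changed genes, no depot difference and the same spread in all groups. In the data 32.8% of genes were called toward adipocytes and 42.3% toward SVCs, so these rates need not hold there.

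Members and lists were chosen with earlier results of these data known. Identifiers printed are the 2 members highest in EAT adipocytes in each direction of the mean fraction difference. The readings in left-out libraries, the stability counts over them and the description of single-library members were added after the data were seen. Alternatives, whose effect is given at the end, were other scalings, no count filter, DESeq2 1.42.0, limma-voom (limma 3.58.1) with sample weights, a replicate block, other thresholds of the rule, and each library left out.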

Additional observations from a re-analysis of the deposited data

How the results depend on the processing

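The number of genes depended on the thresholds. It was 107 as reported, 50 with a pseudocount of 1 TPM, 785 with a ratio of at least 2, 6 with a ratio of at least 8 and 43 with a narrower stromal window. Leaving out 1 library gave 76 to 237 genes. The highest of these were 237 without EAT adipocyte replicate 2 and 207 without IAT adipocyte replicate 3. With TMM-scaled CPM in place of TPM 137 genes were drawn, of which 98 were members, and with TPM rescaled by the median of ratios 103, of which 80 were. For the members as chosen, 53 to 84 were higher in SVCs over the other scalings, filter and tests (62 as reported, and 84 with library size alone), and 56 to 77 with 1 library left out. Drawn anew and fitted without EAT adipocyte replicate 2, 180 of 233 genes tested were higher in SVCs. The number of members higher in adipocytes was 2 or 3, and 1 to 2 with 1 library left out. The shares of all genes called in these other fits are not given here. The median log2 fraction difference over all genes also moved, from -0.16 to -0.34 with library size alone and to -0.06 with DESeq2's size factors. A changed number of calls is therefore not particular to the members. The median length was 2380 bases when drawn anew without EAT adipocyte replicate 2, and 1239 bases as effective length. The median log2 difference of that replicate from the other 2 was -0.43 over the members (-0.47 over the stromal-window genes), -0.98 when drawn anew without it, and 0.12 in TMM-scaled CPM, where the sign turned. Dividing by length acts largely alike on all libraries of a gene, whereas each scale sets its own factor for a whole library. The median-of-ratios factor of the TPM values was 0.66 in EAT adipocyte replicate 2, against 0.97 and 0.99 in replicates 1 and 3. The cause of the low factor was not tested.

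Same-numbered libraries deviated together beyond a correlation of 0.1 at every number in 2 of 6 pairs of groups (IAT SVCs with IAT adipocytes and with EAT SVCs), which is short of all pairs, and the labels tie no number to an animal or batch, so the numbers were not used as pairs. Of 18 correlations 16 were highest with the library's own number, a hint from the data that same-numbered libraries share something. With the replicate block 64 members were higher in SVCs and 2 in adipocytes.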

Other observations

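The 22 genes that met every condition but the separation of adipocyte libraries held the largest ratios of the stromal window. The highest, a gene of 201 bases with a ratio of 1929, stood at 0.00, 656 and 0.00 TPM in EAT adipocyte replicates 1, 2 and 3. The next, of 292 bases, stood at 0.00, 407 and 0.00 TPM, and the third, of 1058 bases, at 0.00, 124.8 and 0.00 TPM. Of the 22, 17 were listed at 0 TPM in at least 1 EAT adipocyte library, 14 were under 500 bases and 14 were at 0 TPM in all SVC libraries. A further gene, of 121 bases, showed the reverse, with 65.2, 0.00 and 50.1 TPM. These genes differ between libraries of 1 group and belong in no comparison of depots.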
